A study of Mus musculus with 7 samples.

Results

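The genes described here are 10 members of AP-1 and the immediate early response: *Fos*, *Fosb*, *Fosl1*, *Fosl2*, *Jun*, *Junb*, *Jund*, *Egr1*, *Atf3* and *Ier2*. They were chosen by name, as the FOS and JUN families and 3 other early genes, and all 10 were found among the 56748 genes of the files. RNA came from cultured mouse muscle stem cells (MuSCs, or satellite cells) in 3 WT and 4 homozygous *Jag2sm* libraries. *Jag2sm* (STOCK Jag2sm/J) is a hypomorphic line with a natural missense variant in the first EGF repeat of the NOTCH ligand JAG2, although the sample labels write its genotype as Jag2-/-. All mice were adult. In both genotypes, hind limb cells were freed with collagenase, depleted of CD31, CD45 and Sca1 positive cells and selected for integrin alpha 7. The paper's general methods then keep MuSCs on collagen in medium with serum and bFGF. Its sequencing methods do not state the medium of the sequenced cells. The exact age, the number of mice behind a sample, the passage and the time since the last change of medium are not given in the sources used here. Whether the samples of a genotype came from separate mice is not given either, so the p-values measure only the spread between these samples.

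AP-1 is a dimer of basic leucine zipper proteins. FOS proteins need a JUN partner, while JUN proteins also pair with each other and with ATF proteins. In resting cells most of these genes are quiet. Serum, growth factors or the dissociation of muscle switch them on within minutes through MAP kinases, SRF and CREB, and their short-lived transcripts soon fade. The comparison of genotypes asks whether JAG2 deficiency changed the level of these genes, and the spread between libraries shows how even that level was.

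None of the 8 members with enough reads to test passed the threshold between *Jag2sm* and WT MuSCs, where 6.26% of all tested genes did (1.42% higher and 4.84% lower). *Fosl1*, a late and stable FOS protein, was higher in every *Jag2sm* library than in every WT library, as were 10.3% of tested genes, though its 0 counts in the shallow WT replicate 1 allow a level above every *Jag2sm* library. *Atf3*, a stress-induced repressor of the ATF family, was lower in every *Jag2sm* library than in every WT library, as were 12.2% of tested genes, at levels too low for the fit. *Jun* had a higher mean in *Jag2sm* MuSCs through 1 of 4 libraries, and most genes near *Jun* on chromosome 4 were high in that library too. *Fos* and *Egr1* were both highest in WT replicate 1, next in *Jag2sm* replicate 2 and lowest in *Jag2sm* replicate 3.

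Libraries held 187834 to 1937581 reads on genes. Values are TMM-normalized counts, written as CPM (relative to the reads on genes of each library). WT replicate 1 had the lowest depth, where 3 counts, the limit that a count of 0 allows, make 17.3 CPM against 1.48 to 4.24 CPM in the others. These limits cover counting error only. The share of aligned reads outside genes was 45.1% in WT replicate 1 and 20.8% to 25.7% elsewhere. Reads that did not align made up 46.0% to 50.8% in *Jag2sm* replicates 1, 2 and 4 and 2.44% to 3.24% in the other 4 libraries, so this share moved largely with genotype. *Jag2* itself was at 80.7, 114 and 116 CPM in WT replicates 1 to 3 and at 42.4, 78.8, 71.9 and 77.4 CPM in *Jag2sm* replicates 1 to 4. Of 19 tested genes of differentiated muscle, 19 were lower in *Jag2sm* MuSCs at an adjusted p under 0.05 (edgeR), and their summed level was 31380 to 53350 CPM in WT and 1252 to 7455 CPM in *Jag2sm* libraries. Lists of endothelial, fibro-adipogenic, immune and glial markers summed to at most 21.7 CPM in any library, with *Kdr*, *Tie1*, *Ptprc*, *Adgre1* and *Lyz2* at 0 in all 7. The mural marker *Rgs5* was at 645 CPM in *Jag2sm* replicate 1 and at 11.5 to 40.4 CPM elsewhere. The other tested mural marker, *Abcc9*, was at 40.4, 11.0 and 13.3 CPM in WT and at 0, 2.76, 0.493 and 0.815 CPM in *Jag2sm*. The 5 mural markers summed to 32.2 to 86.5 CPM in WT and 31.0 to 646 CPM in *Jag2sm*, and the 4 tenocyte markers, mostly *Scx*, to 115 to 128 and 30.1 to 76.6 CPM. The part of each of these in the differences below was not tested. In bulk samples, fewer expressing cells and less RNA per cell cannot be told apart.

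Several of these genes are known to be targets of the factors they encode, so their promoters were read for the motifs of those factors. Of these, 4 are shown, either because the results turn on the gene or because the motif stands for the group. Each stretch is 300 bases of GRCm39, written 5′ to 3′ on the strand of the gene and ending 35 bases before the start of the canonical transcript. The scan covered 500 bases before the start on both strands. Capitals mark the CRE TGACGTCA, bound by CREB and by JUN-ATF dimers, its shorter core site TGACG or the reverse CGTCA, the variant AP-1 site TGACATCA, the EGR site GCGGGGGCG or GCGTGGGCG, and the CArG box, bound by SRF. Every CRE also holds the core site on both strands.
Fos (chr12:85520324-85520623, plus strand): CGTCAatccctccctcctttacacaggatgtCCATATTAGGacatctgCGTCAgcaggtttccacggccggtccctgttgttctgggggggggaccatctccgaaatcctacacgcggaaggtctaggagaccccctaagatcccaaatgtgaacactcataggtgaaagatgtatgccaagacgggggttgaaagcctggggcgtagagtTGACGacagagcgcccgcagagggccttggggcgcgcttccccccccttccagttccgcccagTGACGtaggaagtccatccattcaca
Jun (chr4:94940494-94940793, minus strand): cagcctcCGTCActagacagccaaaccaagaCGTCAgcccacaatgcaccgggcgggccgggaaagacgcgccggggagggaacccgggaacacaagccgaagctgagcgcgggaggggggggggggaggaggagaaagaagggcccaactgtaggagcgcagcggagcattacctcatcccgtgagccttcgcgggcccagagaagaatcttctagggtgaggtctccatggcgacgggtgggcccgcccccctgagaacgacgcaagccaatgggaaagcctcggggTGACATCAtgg
Jund (chr8:71151265-71151564, plus strand): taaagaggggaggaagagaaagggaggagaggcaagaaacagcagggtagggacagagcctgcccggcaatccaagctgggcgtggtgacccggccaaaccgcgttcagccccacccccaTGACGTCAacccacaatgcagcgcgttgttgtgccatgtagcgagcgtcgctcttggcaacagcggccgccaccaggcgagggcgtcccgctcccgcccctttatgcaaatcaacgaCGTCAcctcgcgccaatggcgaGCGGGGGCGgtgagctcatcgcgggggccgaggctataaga
Ier2 (chr8:85389518-85389817, minus strand): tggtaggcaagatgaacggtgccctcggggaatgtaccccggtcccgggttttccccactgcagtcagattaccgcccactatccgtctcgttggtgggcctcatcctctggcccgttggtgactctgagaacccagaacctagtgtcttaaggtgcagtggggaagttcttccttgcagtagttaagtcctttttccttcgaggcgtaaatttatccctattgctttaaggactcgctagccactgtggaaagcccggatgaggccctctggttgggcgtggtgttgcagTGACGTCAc
Of 21770 protein-coding genes, 2.76% had a CArG box in the scanned stretch, and among the members *Fos* had one 303 bases before its start and *Fosb* one 266 bases before its start. *Jun* carried TGACATCA 45 bases before its start, a site present in 3.72% of promoters. The complete CRE was found in *Ier2* at 43 and in *Jund* at 214 bases before the start, and in 1.96% of promoters. The core site was found in 8 of 10 members and in 25.8% of promoters, and the EGR site in *Fosb* and *Jund* and in 3.54%. The classical AP-1 site TGACTCA was found in 7.57% of promoters and in 0 of the 10 members. A match is a description of the letters, not evidence of binding. Only exact matches in the 500 bases before the annotated canonical start were counted. A member without a match, such as *Egr1* for the CArG box, may hold a site outside that stretch or in altered letters.

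Levels between genes are given per kb of the canonical transcript, as the mean over 7 libraries, and then as CPM, since a long read can cover most of a transcript and the number of reads then depends less on length. Per kb, *Jun* led at 77.0 CPM per kb, followed by *Junb* at 39.2, *Egr1* at 31.2 and *Ier2* at 26.4. *Jund* followed at 15.2 CPM per kb, then *Fosl2* at 6.84, *Fos* at 5.50, *Fosl1* at 5.16, *Atf3* at 5.07 and *Fosb* at 0.726. On this scale *Jund* was above *Fosl2* in 6 of 7 libraries. *Jun* was above *Junb* in 7 of 7 libraries and *Atf3* above *Fosb* in 7 of 7. *Fos* was above *Fosl1* in 3 of 7 libraries, *Egr1* above *Ier2* in 4 and *Fosl1* above *Atf3* in 4, so these neighbours did not differ beyond their spread. In CPM without length, *Jun* still led at 245.7, but *Egr1* followed at 140.2, above *Junb* at 70.9, and *Fosl2* at 47.7 came before *Ier2* at 40.3 and *Jund* at 25.4. On this scale *Jun* was above *Egr1* in 5 of 7 libraries, and its mean includes 703 CPM in *Jag2sm* replicate 1. *Fosl2* was then above *Jund* in 6 of 7 libraries, so the order of these genes turned with the scale. *Fos* at 11.6, *Atf3* at 10.1, *Fosl1* at 9.61 and *Fosb* at 2.74 were the lowest 4 on both scales.

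**Figure D1:**
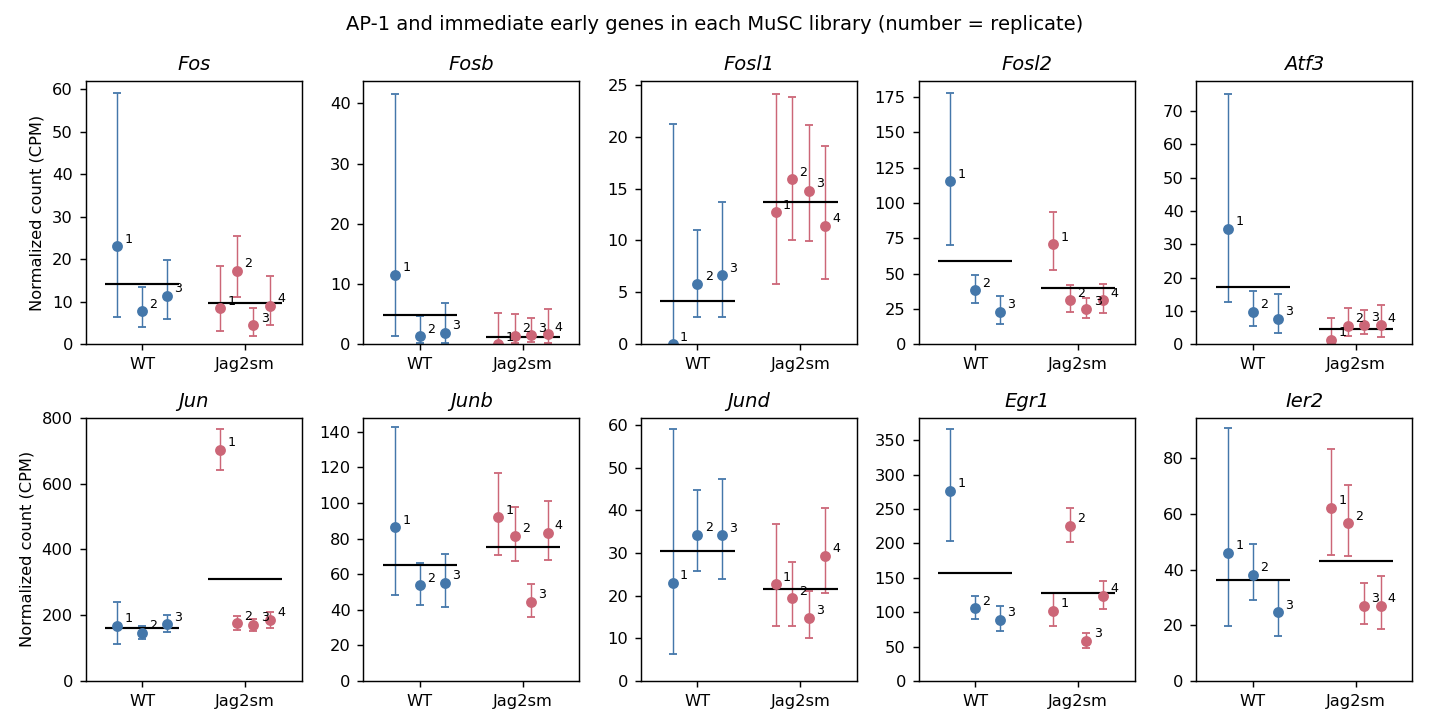
Normalized count in CPM (vertical axis, linear from 0) of each of the 10 members in the 3 WT and 4 *Jag2sm* libraries; points are libraries numbered by replicate, thin bars 95% Poisson intervals of the counts, and horizontal lines genotype means. *Jun* stands at 703 CPM in *Jag2sm* replicate 1 and at 147 to 185 CPM elsewhere, *Fosl1* is higher in the 4 *Jag2sm* libraries, and WT replicate 1 is the highest point for *Fos*, *Fosb*, *Fosl2*, *Egr1* and *Atf3* with wide intervals.

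*Fos* (ENSMUSG00000021250.14, chr12:85520658-85524047, plus strand) is the serum-responsive gene that named the family. It stood at 23.1, 7.76 and 11.4 CPM in WT replicates 1 to 3 and at 8.48, 17.3, 4.43 and 8.97 CPM in *Jag2sm* replicates 1 to 4. WT replicate 1 and *Jag2sm* replicate 2 were high, *Jag2sm* replicate 3 was low, and the genotypes overlapped. The value of WT replicate 1 rested on 4 counts. The mean was 14.1 ± 8.0 CPM in WT (SD, n = 3) and 9.79 ± 5.39 CPM in *Jag2sm* (SD, n = 4), and the log2 fold change was -0.17 (95% interval -1.37 to 1.02, adjusted p = 0.912 by edgeR's quasi-likelihood test, with p-values adjusted by Benjamini and Hochberg over all genes tested). Between libraries of the same batch number it was -1.28, 1.00 and -1.09 in batches 1, 2 and 3. It turned to 0.04 without WT replicate 1 and to 0.18 without *Jag2sm* replicate 3, so no direction was established.

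*Fosb* (ENSMUSG00000003545.4, chr7:19036621-19043976, minus strand) was near the limit of detection. It stood at 11.5, 1.29 and 1.90 CPM in WT and at 0, 1.38, 1.48 and 1.63 CPM in *Jag2sm* replicates 1 to 4. Those are 6 counts over all WT libraries and 7 over all *Jag2sm* libraries, too few to test, and the genotypes overlapped.

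*Fosl1* (ENSMUSG00000024912.7, chr19:5497575-5505974, plus strand) encodes FRA1, which lacks the activation domain of FOS and accumulates late after stimulation. It stood at 0, 5.82 and 6.64 CPM in WT replicates 1 to 3 and at 12.7, 15.9, 14.8 and 11.4 CPM in *Jag2sm* replicates 1 to 4. Every *Jag2sm* library was above every WT library. The 0 in WT replicate 1 allows up to 17.3 CPM, which is above the level of each *Jag2sm* library (3 counts). The mean was 4.15 ± 3.62 CPM in WT (SD, n = 3) and 13.7 ± 2.01 CPM in *Jag2sm* (SD, n = 4). The log2 fold change was 1.29 with a standard error of 0.42 (95% interval 0.36 to 2.21), and edgeR's quasi-likelihood test gave an unadjusted p of 0.0111 and a Benjamini-Hochberg adjusted p of 0.105, which misses 0.05. *Fosl1* entered the fit only through the *Jag2sm* libraries, since 0 of 3 WT and 4 of 4 *Jag2sm* libraries reached the filter's level of 8.17 CPM, so a tested *Fosl1* had to be higher there and the p and interval are no independent support. Without the filter the log2 fold change was 1.30 (adjusted p = 0.148, edgeR). Within batches 1, 2 and 3 the log2 difference was 3.08, 1.23 and 0.98. Without WT replicate 1 it was 1.14 (adjusted p = 0.107, edgeR). *Jag2sm* replicate 3, whose share of unaligned reads was like that of WT, was at 14.8 CPM, from 30 counts. The part of that share in the difference was not tested. An exact two-sided permutation test of mean log2 CPM gave p = 0.0286, the smallest that 3 against 4 libraries allow. Across all genes tested, 10.3% had every *Jag2sm* library above every WT library, and 8.76% had an unadjusted p under 0.05 in this direction. The exons of *Fosl1* overlap those of *Ccdc85b* and *Gm59617* on the other strand, so its counts are uncertain where strand was not used.

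*Fosl2* (ENSMUSG00000029135.11, chr5:32292707-32315186, plus strand), which encodes FRA2, took most of the FOS-family counts. It stood at 115, 38.1 and 22.8 CPM in WT and at 70.7, 31.1, 25.1 and 31.0 CPM in *Jag2sm*. Replicate 1 was the highest library of both genotypes, and the genotypes overlapped. The log2 fold change was -0.27 (95% interval -1.43 to 0.89, adjusted p = 0.837, edgeR) and 0.26 without WT replicate 1. By batch number, 1 to 3, it was -0.69, -0.28 and 0.13. An overlapping predicted gene, *Gm72529*, lies on the other strand.

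Within the FOS family, *Fosl1* took 10.5% of pooled WT counts, with a range of 0% to 15.6% over libraries, and 23.9% of pooled *Jag2sm* counts, with a range of 13.9% to 32.3%. *Fosl2* took 67.3% in WT (53.3% to 76.9% over libraries) and 57.9% in *Jag2sm* (47.4% to 76.9%). These shares are of counts not divided by transcript length, which is 6975 bases for *Fosl2*, 2114 for *Fos* and 1864 for *Fosl1*. The summed FOS-family level was 150, 53.0 and 42.7 CPM in WT and 91.9, 65.6, 45.8 and 53.0 CPM in *Jag2sm*, and the genotypes overlapped.

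*Jun* (ENSMUSG00000052684.5, chr4:94937271-94940459, minus strand) encodes the main partner of FOS proteins. It stood at 167, 147 and 173 CPM in WT replicates 1 to 3 and at 703, 176, 170 and 185 CPM in *Jag2sm* replicates 1 to 4. *Jag2sm* replicate 1 was about 4.10 times the median of the other 6 libraries, and those 6 lay within a narrow range. The mean was 162 ± 13.6 CPM in WT (SD, n = 3) and 308 ± 263 CPM in *Jag2sm* (SD, n = 4), with a log2 fold change of 0.92 (95% interval -0.19 to 2.03, adjusted p = 0.349, edgeR). Without *Jag2sm* replicate 1 the log2 fold change was 0.14 (adjusted p = 0.777, edgeR), and the SD of log2 CPM within genotypes fell from 0.77 to 0.10. Within batches 1, 2 and 3 the log2 difference was 2.06, 0.26 and -0.02. When no filter on low counts was used, the adjusted p was 0.0373 (edgeR), again with that library included.

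*Junb* (ENSMUSG00000052837.8, chr8:85701113-85705359, minus strand), a weaker activator than JUN that can oppose it, stood at 86.5, 53.6 and 55 CPM in WT and at 91.9, 81.5, 44.3 and 83.1 CPM in *Jag2sm*. *Jag2sm* replicate 3 was the lowest library, and the genotypes overlapped. The log2 fold change was 0.30 (95% interval -0.34 to 0.95, adjusted p = 0.624, edgeR). By batch number, 1 to 3, it was 0.09, 0.59 and -0.30. Its exons overlap those of *Prdx2* and *Gm65321* on the other strand.

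*Jund* (ENSMUSG00000071076.9, chr8:71151599-71153265, plus strand), the JUN protein of resting cells, stood at 23.1, 34.3 and 34.1 CPM in WT and at 22.6, 19.3, 14.8 and 29.3 CPM in *Jag2sm*. WT replicate 1, with the widest counting interval, lay among the *Jag2sm* libraries, so the genotypes overlapped. The mean was 30.5 ± 6.43 CPM in WT (SD, n = 3) and 21.5 ± 6.13 CPM in *Jag2sm* (SD, n = 4). The log2 fold change was -0.62 (95% interval -1.26 to 0.03, adjusted p = 0.277, edgeR), and it was -0.71 without WT replicate 1. By batch number, 1 to 3, it was -0.03, -0.77 and -1.12. *Gm11175* overlaps it on the other strand.

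In the JUN family, *Jund* took 13.5% of pooled WT counts (8.33% to 14.6% over libraries) and 6.08% of pooled *Jag2sm* counts (2.77% to 9.86%). *Jun* took 63.8% in WT and 73.2% in *Jag2sm*, where *Jag2sm* replicate 1 reached 86.0%. The summed JUN-family level was 277, 235 and 262 CPM in WT and 817, 276, 229 and 298 CPM in *Jag2sm*, so the family sum too was set apart by that library.

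The genes next to *Jun* were then examined, because the gene most like *Jun* across the libraries after the named-gene rule was *Plaa*, which lies 0.484 Mb from it. The Pearson correlation of log2 CPM over the 7 libraries was 0.969 for *Plaa*, 0.968 for *Akr1a1* and 0.967 for *Tmem160*, and in each case *Jag2sm* replicate 1 was the high library. *Plaa* was at 662 CPM in *Jag2sm* replicate 1 and at 67.7 to 94.4 CPM in the other 6. Of 7 tested neighbours within 1 Mb of *Jun*, 6 were more than 3-fold above the median of the other libraries in *Jag2sm* replicate 1. The ratio was 10.3 for *Caap1*, 7.50 for *Plaa*, 6.85 for *Mysm1*, 5.76 for *Ift74*, 8.21 for *Fggy* and 7.49 for *Junos*. The exons of *Junos* and *Jun* overlap on opposite strands, so where strand was not used their reads cannot be told apart. Without *Junos*, 5 of 6 neighbours passed 3-fold. The exception was *Gm12693*, at 0.95. The median log2 ratio of the 7 was 2.71.

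Extended to 20 Mb on either side, the pattern had edges. From 1 Mb before to 2 Mb after *Jun*, 7 of 8 tested genes other than *Jun* were more than 3-fold up in that library, including *Cyp2j6* at a ratio of 18.2, and 6 of 7 without *Junos*. From 2 to 3.5 Mb, 0 of 3 were (*Nfia*, *Tm2d1* and *Patj*), and from 3.5 to 6 Mb 5 of 6 were, with *Usp1* below the line at 2.82. Further out it was 3 of 25 before and 1 of 47 after. Over all tested genes the share was 1.60%. Within 1 Mb of the other members, 0 neighbours passed 3-fold, except 1 of 50 around *Jund*. In the other 6 libraries, 0 of 8 genes in the segment around *Jun* passed 3-fold by the same measure. These segments were chosen after the values were seen, and DNA was not measured here. The part of this stretch in the *Jun* difference was not tested.

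**Figure D2:**
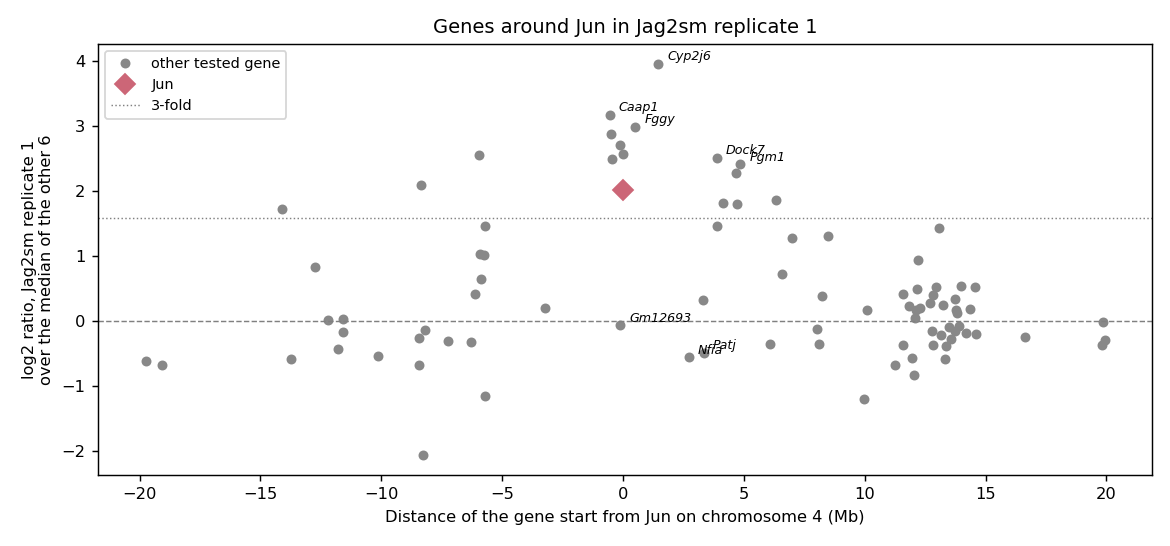
log2 ratio of CPM in *Jag2sm* replicate 1 over the median of the other 6 libraries (vertical axis) for tested genes within 20 Mb of *Jun*, by distance of the gene start from *Jun* in Mb (horizontal axis); the diamond is *Jun*, grey points other genes, and dotted and dashed lines mark 3-fold and no difference. 7 of 8 genes from 1 Mb before to 2 Mb after and 5 of 6 from 3.5 to 6 Mb lie above 3-fold, against 1 of 47 from 6 to 20 Mb.

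*Egr1* (ENSMUSG00000038418.8, chr18:34992876-34998049, plus strand), a zinc finger factor induced together with FOS by the same SRF-dependent route, stood at 277, 105 and 89.1 CPM in WT and at 102, 226, 58.6 and 124 CPM in *Jag2sm*. The order was close to that of *Fos*, with WT replicate 1 and *Jag2sm* replicate 2 high and *Jag2sm* replicate 3 low, and the genotypes overlapped. The mean was 157 ± 104 CPM in WT (SD, n = 3) and 128 ± 71.0 CPM in *Jag2sm* (SD, n = 4). The log2 fold change was -0.15 (95% interval -1.23 to 0.92, adjusted p = 0.913, edgeR), and it was 0.38 without WT replicate 1. Within batches 1, 2 and 3 it was -1.43, 1.09 and -0.59. Its variance within genotypes was 48.5 times the counting variance.

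*Fos* and *Egr1* had a Pearson correlation of log2 CPM of 0.936 and a Spearman correlation of 0.75 over the 7 libraries, the highest of 28 pairs of tested members. The points share library and depth, so this is a description. Between WT replicates 2 and 3 the 2 genes moved in opposite directions, and the top WT value of *Fos* rested on 4 counts. Without WT replicate 1 Pearson's correlation was 0.885, and without WT replicate 1 and *Jag2sm* replicate 2, the 2 libraries farthest from the median of *Fos*, it was 0.718. The genes most like *Fos* across all tested genes were *Nr3c1*, the glucocorticoid receptor, at 0.985, *Xpo4* at 0.964 and *Ssbp2* at 0.961. *Fos* and *Jun* had a correlation of -0.15, so the high *Jun* library was not a high *Fos* library.

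**Figure D3:**
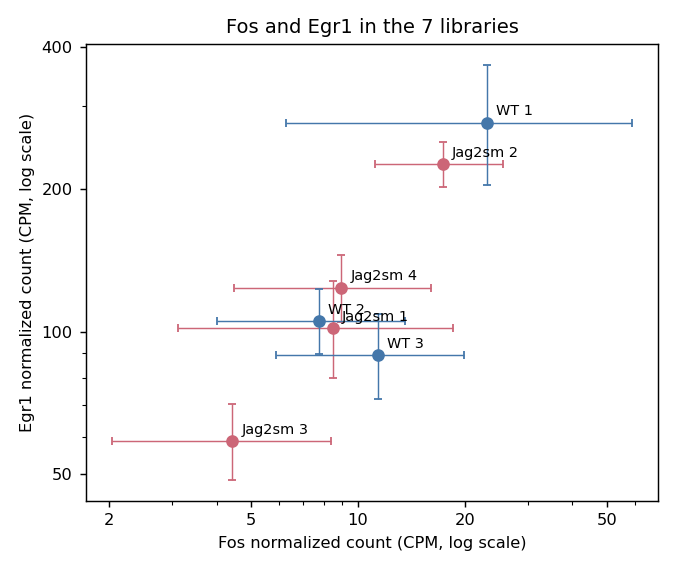
*Egr1* (vertical axis) against *Fos* (horizontal axis), both in CPM on log scales, with 1 point per library coloured by genotype and bars for 95% Poisson intervals of the counts. WT replicate 1 and *Jag2sm* replicate 2 lie highest on both axes, *Jag2sm* replicate 3 lies lowest on both, and the other 4 libraries lie close together.

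*Atf3* (ENSMUSG00000026628.14, chr1:190902493-190950241, minus strand), a stress-induced repressor, stood at 34.6, 9.70 and 7.59 CPM in WT replicates 1 to 3 and at 1.41, 5.53, 5.91 and 5.71 CPM in *Jag2sm* replicates 1 to 4. Every *Jag2sm* library was below every WT library, and the smallest gap, 7.59 against 5.91 CPM, was a matter of a few counts. There were 29 counts over the WT and 28 over the *Jag2sm* libraries, which left *Atf3* under the filter of the fit. An exact two-sided permutation test of mean log2 CPM gave p = 0.0286, the smallest possible here. Across tested genes, 12.2% had every *Jag2sm* library below every WT library, and 22.5% did not overlap in either direction. Without the filter on low counts the log2 fold change was -1.23 (adjusted p = 0.274, edgeR), and DESeq2 gave -1.47 (adjusted p = 0.314). Within batches 1, 2 and 3 the log2 difference was -3.54, -0.66 and -0.29.

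*Ier2* (ENSMUSG00000053560.6, chr8:85387960-85389483, minus strand), a small nuclear protein induced with FOS, stood at 46.1, 38.1 and 24.7 CPM in WT and at 62.2, 56.7, 27.1 and 26.9 CPM in *Jag2sm*. *Jag2sm* replicates 1 and 2 were high, and the genotypes overlapped. The log2 fold change was 0.31 (95% interval -0.53 to 1.15, adjusted p = 0.709, edgeR). By batch number, 1 to 3, it was 0.42, 0.55 and 0.13.

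Across the members, 8 of 10 passed the filter and 0 were called at an adjusted p under 0.05, against 6.26% of the 9489 tested genes. An unadjusted p under 0.05 was reached by 1 of the 8 (*Fosl1*), against 19.7% of tested genes (8.76% higher and 11% lower). That member entered the fit only through the *Jag2sm* libraries. Of the 8 log2 fold changes 4 were positive and 4 negative, with a median of 0.07 against 0.05 over all tested genes. The members were uneven between libraries. WT replicate 1 was the highest library for 5 of 10 members, *Jag2sm* replicate 1 for 3, and *Jag2sm* replicate 3 the lowest for 4. These shares were not computed over all tested genes. In the shallow WT replicate 1 the values of *Fos*, *Fosb* and *Atf3* rested on 4, 2 and 6 counts. The spread of log2 CPM within genotypes was larger than in 88.5% of tested genes for *Fosl2*, 86.7% for *Egr1*, 86.6% for *Fosl1* and 84.8% for *Jun*, and larger than in 52.4% for *Junb* and 38.7% for *Jund*. Without WT replicate 1, the SD of log2 CPM fell from 0.82 to 0.17 for *Fosl1*, and without both first replicates from 0.88 to 0.32 for *Fosl2*. The variance within genotypes was 140 times the counting variance for *Jun*, 3.76 times for *Fos* and 0.453 times for *Fosl1*, the last below the level of counting alone.

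**Figure D4:**
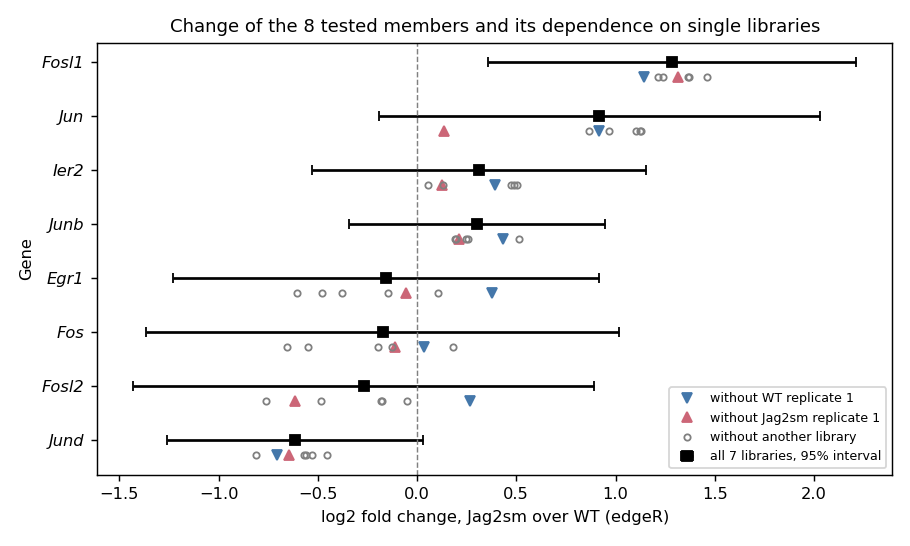
log2 fold change of *Jag2sm* over WT (horizontal axis) for the 8 tested members (vertical axis); squares are fits to all 7 libraries with 95% intervals, and the smaller symbols fits without 1 library. Only the interval of *Fosl1*, from 0.36 to 2.21, lies away from 0, but *Fosl1* entered the fit only through the *Jag2sm* libraries. *Jun* moves from 0.92 to 0.14 without *Jag2sm* replicate 1.

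Other AP-1 partners and regulators, such as ATF and MAF proteins, gave 0 called genes of 12 tested, against 6.26% of all tested genes. Their log2 fold changes were positive in 9 and negative in 3, with a median of 0.22. The smallest p-values were those of *Nfe2l2* (NRF2, of the oxidative stress response), at a log2 fold change of 0.73 (adjusted p = 0.0613, edgeR), and *Nab1*, a corepressor of EGR1, at 0.91 (adjusted p = 0.307, edgeR).

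Among other immediate early genes, 3 of 33 tested were called, against 6.26% of all tested genes. *Cebpb* and *Myc*, transcription factors of growth control, rose by 1.46 and 1.04 on the log2 scale (adjusted p = 0.0162 and 0.0270, edgeR). *Sik1*, a kinase induced by cyclic AMP, fell by 1.28 (adjusted p = 0.0107, edgeR). Leaving out some single libraries ended the calls of *Cebpb* and *Myc*, with adjusted p up to 0.0842 and 0.165 (edgeR), both without WT replicate 3. *Sik1* was at 196, 118 and 122 CPM in WT and at 48.1, 53.9, 56.2 and 68.5 CPM in *Jag2sm*, and *Myc* at 74.9, 68.5 and 53.1 against 107, 162, 141 and 112 CPM. *Cebpb* was at 5.76, 15.5 and 13.3 against 42.4, 38.7, 29.1 and 40.8 CPM. Of the 33 log2 fold changes 19 were positive and 14 negative, with a median of 0.25. An unadjusted p under 0.05 (edgeR) was reached by 9 higher and 6 lower genes of the 33, against 8.76% and 11% of tested genes. The genotypes did not overlap in 4 higher and 5 lower genes of the 33, against 10.3% and 12.2% of tested genes.

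Of 26 tested genes that act upstream of these genes through MAP kinases, SRF and its partners, 1 rose and 1 fell. *Elk3*, a ternary complex partner of SRF, rose by 1.32 (adjusted p = 0.0280, edgeR). *Mapk8*, which encodes JNK1, a kinase that phosphorylates JUN, fell by 0.97 (adjusted p = 0.0470, edgeR). *Mapk8* was at 63.4, 64.6 and 79.7 CPM in WT and at 41.0, 39.4, 23.7 and 41.6 CPM in *Jag2sm*. *Mapk8* was called in only 6 of 17 alternatives, and its adjusted p was 0.0731 by DESeq2 and 0.0806 with library size alone (edgeR). The list's 2 calls of 26 stand beside 6.26% of all tested genes. Its log2 fold changes were negative in 16 of 26, against 4366 of 9489 tested genes, with a median of -0.14, and under library size alone 15 of 26 were positive with a median of 0.022.

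Of textbook AP-1 target genes, 18 of 18 tested had a positive log2 fold change, against 5123 of 9489 tested genes, with a median of 0.91. The list was chosen with earlier results of these data known, so its counts beside the shares of all genes are no independent support. *Krt18* and *Il11* entered the fit only through *Jag2sm* libraries, so they had to be positive. Both are in the counts of positive genes and of unadjusted p given here, and *Krt18* is also in the count without overlap. With at least 10 counts in every library, which leaves both out, 8 of 8 were positive. Their median was 0.86, against 0.02 over all genes tested in that setting. Of those, 5 had an unadjusted p under 0.05 (edgeR). At an adjusted p under 0.05, 1 of 18 rose, against 1.42% of tested genes. This was *Spp1*, which encodes osteopontin, at 1.63 (adjusted p = 0.0302, edgeR), with 1418, 2052 and 1302 CPM in WT and 8234, 4085, 4124 and 3340 CPM in *Jag2sm*. An unadjusted p under 0.05 was reached by 10 of 18, all positive, against 8.76%, and in 6 of 18 every *Jag2sm* library was above every WT library, against 10.3%. *Vegfa* was closest to the threshold, at 0.92 (adjusted p = 0.0582, edgeR). *Jag2sm* replicate 1 was the highest library for *Il11* (90.5 CPM), *Areg* (112 CPM), *Ptgs2* (122 CPM) and *Timp1* (1299 CPM), 4 genes chosen after their values were seen. Without it the median was 0.62, with 15 of 16 positive, and without it and WT replicate 1 also 0.62, with 2 of 18 called. Without WT replicate 3, 14 of 18 were positive and 5 had an unadjusted p under 0.05. *Spp1* was called in 12 of 17 alternatives. These genes have other regulators, and their values beside the members are given without a link being tested.

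Heat shock genes, which mark another kind of stress, gave 1 called gene of 15 tested, against 6.26% of all tested genes. Their log2 fold changes were positive in 9 and negative in 6, with a median of 0.03. *Hspb8*, a small chaperone of muscle, fell by 2.88 (adjusted p = 0.00955, edgeR), and the next smallest p was that of *Dnajb4* at -0.51 (adjusted p = 0.320, edgeR).

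**Figure D5:**
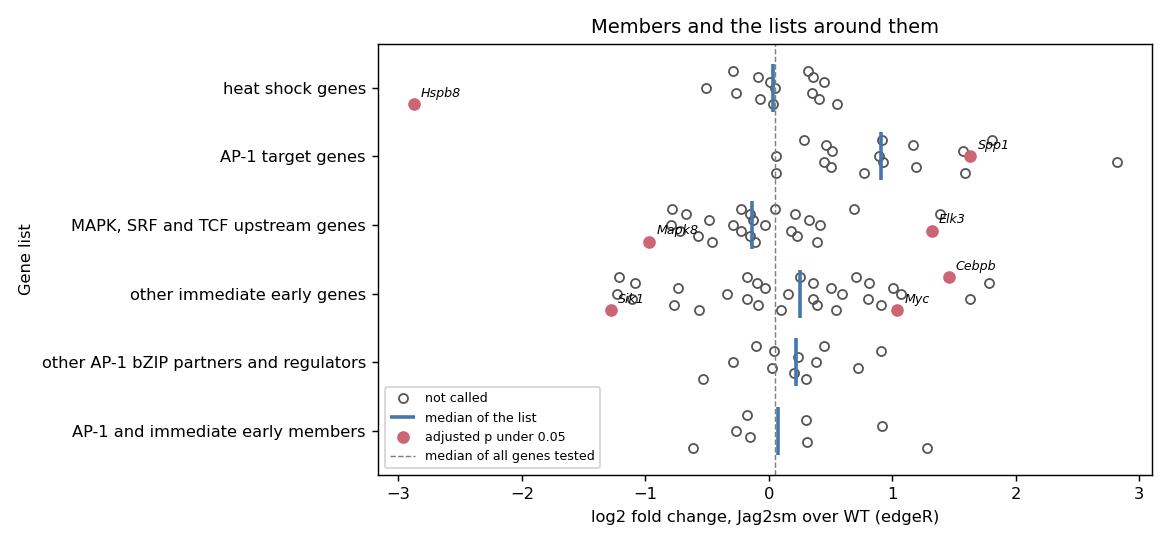
log2 fold change of *Jag2sm* over WT (horizontal axis) of every tested gene in 6 gene lists (vertical axis); filled points have an adjusted p under 0.05 and are named, blue bars are list medians, and the dashed line is the median of all tested genes, 0.05. The AP-1 targets lie to the right with a median of 0.91, while the members straddle 0. The lists were chosen with earlier results of these data known.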

How the data were processed

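Direct cDNA from total RNA of cultured MuSCs was sequenced on Nanopore flow cells in 7 libraries. The deposited values are raw counts per gene and library, made by the authors with minimap2 2.17 (build GRCm39) and HTSeq, per the labels. The annotation release and strand setting are not given in the sources used here. Their table of DESeq2 statistics was not used. Depth is given in the report. Counts were normalized by TMM and tested in R 4.3.3 with edgeR 4.0.16 (glmQLFit and glmQLFTest, filterByExpr with a minimum count of 10 and a minimum total of 15, 9489 genes, no covariates). Log2 CPM uses a prior count of 2, and log2 ratios of *Jag2sm* replicate 1 to other libraries (also those behind the counts over 3-fold) a pseudocount of 2 CPM. DESeq2 1.42.0, limma 3.58.1 and other settings were tried as alternatives. The script was tested on simulated data. Genes were placed with GENCODE M39, and exon overlaps found with bedtools 2.31.1. The summary rows of the files, 5 per library, were left out of library sizes. The members and lists were chosen with earlier results of these data known. Named genes are all members, from each list the called genes (at most 8), or the 2 of smallest p where fewer than 2 were called, and the 3 genes most like *Fos* and *Jun*. Batch numbers in the labels equal replicate numbers, and *Jag2sm* replicate 4 has no WT partner.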

Additional observations from a re-analysis of the deposited data

Results flagged for a closer look

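In 4 of the 10 members, 1 of the 4 *Jag2sm* libraries lay far from the other 3, by a gap over Dixon's 95% critical value, and in each it was replicate 1. *Jun* was at 702.8 CPM there (gap 0.972 of the range), *Fosl2* at 70.7 CPM (0.869), *Atf3* at 1.414 CPM (0.914) and *Fosb* at 0 CPM (0.848). For values drawn from a normal distribution, chance gives such a gap in about 1 in 20 groups. The share over all tested genes was not computed, so whether this is particular to the members was not tested. For *Fosb* and *Atf3* the gap is a matter of a few counts, since 3 counts make 4.24 CPM in that library.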

How the results depend on the processing

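Among 18 alternatives, including 1 chosen after seeing the data (without WT replicate 1 and *Jag2sm* replicate 1 together), *Fosl1*, *Jun*, *Jund* and *Ier2* kept their direction in each alternative that tested them. *Fosl1* ranged from 1.14 to 1.46 (adjusted p from 0.0661 to 0.282 by edgeR, DESeq2 or limma) and *Jund* from -0.84 to -0.45. Since *Fosl1* entered the main fit only through the *Jag2sm* libraries, its kept direction is no independent support. Without a filter on low counts, 1248 genes and 1 member (*Jun*, 0.94) were called; with at least 10 counts in every library 274 genes, and with counts thinned to the smallest library 255. The causes were not tested, beyond the fewer or more genes and reads these settings leave. Reversed values were *Junb* -0.011 when thinned and *Egr1* 0.056 with at least 10 counts, and, without both first replicates, *Fos* 0.08 and *Egr1* 0.47. Leaving out each library gave 251 to 616 called genes and 0 to 0 called members, and log2 fold changes of -0.65 to 0.18 for *Fos*, -0.76 to 0.26 for *Fosl2*, -0.60 to 0.38 for *Egr1* and 0.14 to 1.13 for *Jun*. Called AP-1 partners were 1 by library size, 1 without filter, 1 with at least 10 counts, 2 by DESeq2, 1 by limma-voom and 1 without both first replicates (0 to 1 leaving out a library). Called other early genes were 5 by library size, 10 without filter, 6 by DESeq2 and 1 when thinned (1 to 5). Called upstream genes were 1 by library size, 0 with at least 10 counts, 1 with the replicate block and 0 when thinned (0 to 2). Called AP-1 targets were 4 by library size, 8 without filter, 2 with at least 10 counts, 6 by DESeq2 and 2 without both first replicates (0 to 4). Library size alone moved the median of all tested genes from 0.05 to 0.21, and DESeq2 gave -0.18 over the genes it tests. Deviations of same-numbered libraries from their genotype means correlated at 0.0740, 0.0144 and 0.0539. Whether these libraries shared a batch was not tested. With the replicate block, *Jun* was at 0.70 and *Jund* at -0.84, and no member was called, while *Cebpb* (adjusted p = 0.0567), *Myc* (0.0602), *Spp1* (0.0812) and *Mapk8* (0.0969) lost their calls (edgeR). *Sik1* and *Hspb8* were called in 17 of 17 alternatives, *Myc* in 12 of 17, *Cebpb* in 11 of 15, *Elk3* in 13 of 16, *Spp1* in 12 of 17 and *Mapk8* in 6 of 17. Depth limits *Fosb*, *Atf3* and WT replicate 1 most.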
